A study of Mus musculus with 6 samples.

Results

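Mast cell progenitors and macrophage-labelled cells of the mouse fetal liver at embryonic day E11.5 were set side by side. They are 2 of the 6 libraries of a study of fates derived from erythro-myeloid progenitors. The embryos had a mixed strain background, given as C57BL/6xFVB, and the cells were sorted by fate mapping with Csf1r-iCre, in which a Cre recombinase under the control of the macrophage gene Csf1r marks cells and their descendants. The mark is therefore shared by the 2 libraries and by the erythro-myeloid progenitor (EMP) library of the same organ and day. The labels call the first library MCPs (mast cell progenitors) and the second MAC, described as macrophages. The column name of the MCP library ends in B7 positive and that of the EMPs in B7 negative, and if this names a sort on integrin beta 7, the level of Itgb7 was set by the gate. Each library stands alone in its group, and how many embryos went into it is not given in the sources used here. No p-value or standard error exists for any difference below, and every statement describes these libraries. Of 17909 genes in the table, 3254 had a level of at least 10 FPKM (fragments scaled to transcript length and to the mapped fragments of the library) in either liver library and were compared as differences of log2(FPKM + 1), MCPs minus macrophage-labelled cells.

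EMPs arise in the yolk sac, seed the fetal liver, and give red cells, megakaryocytes, mast cells, granulocytes, monocytes and macrophages before definitive stem cells take over. Mast cells depend on the receptor Kit, carry the high-affinity IgE receptor, and store proteases, heparin-like glycans, histamine and serotonin in granules. Macrophages depend on the receptor Csf1r and on the transcription factor PU.1 (gene Spi1), take up particles and digest them in lysosomes. Neutrophils and eosinophils make their granule proteins in stages, the primary granule enzymes first and the specific granule proteins later.

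A difference of at least 2 on the log2 scale, a 4-fold change, was counted as a call. By that measure 121 genes were higher in MCPs, 3.72% of those compared, and 195 were higher in the macrophage-labelled library, 5.99%. The second group held more of the abundant transcripts, with 41 genes above 100 FPKM there against 12 of the first group in MCPs. Median-of-ratios scaling over the 6 libraries lowered every MCP level relative to the other library by 0.28 on the log2 scale, and then 68 genes (2.36%) were higher in MCPs and 222 (7.72%) in the macrophage-labelled library. All 68 were among the 121, and 190 of the 222 were among the 195. The macrophage-labelled share of the calls thus moved from 61.7% to 76.6%. At the edge of the threshold stood Ttll12 with a difference of 2.01 and, just outside, Gar1 with 1.99. On the other side Cox7c had a difference of -2.02 and, just outside, Pgd had -1.99.

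**Figure D1:**
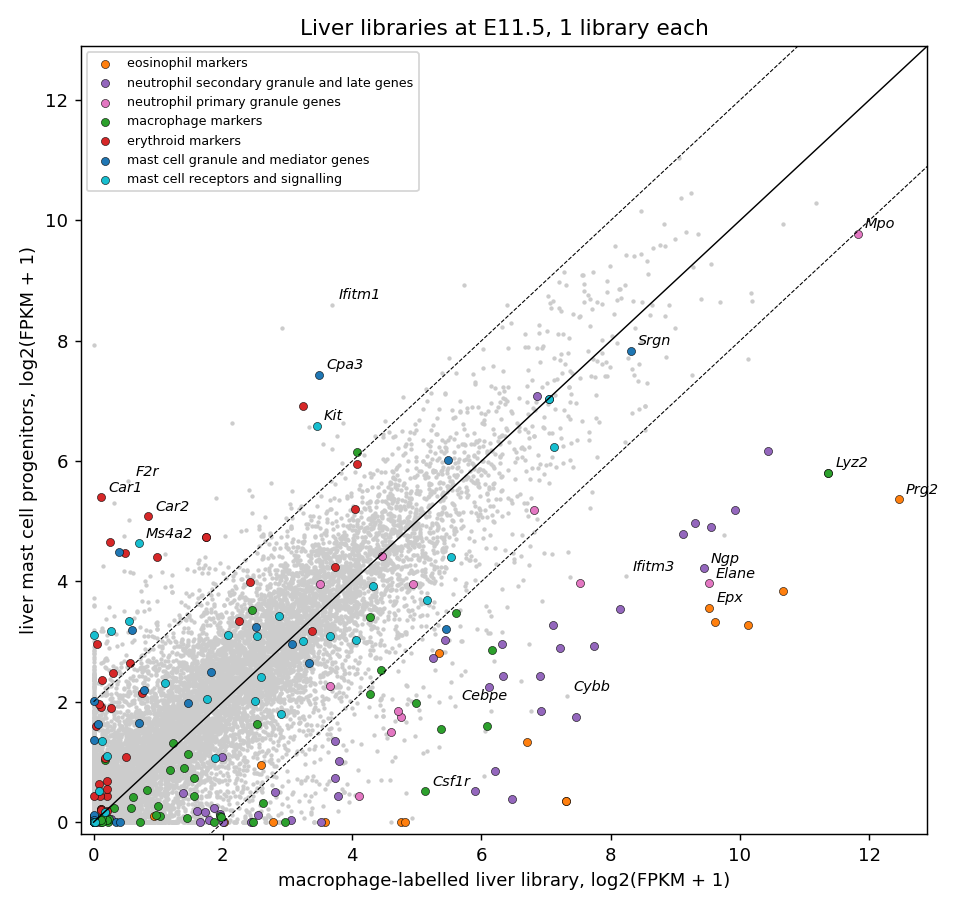
Level of each gene in liver MCPs (vertical) against the macrophage-labelled liver library (horizontal), both as log2(FPKM + 1), with 1 point per gene and the members of 7 gene lists coloured. The solid line marks equal levels and the dashed lines the 4-fold limits, and Prg2 at 5617 FPKM lies farthest to the right.

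The libraries held an estimated 12400000 (MCP) and 11550000 (macrophage-labelled) mapped fragments, so that a 2 kb transcript at 10 FPKM rested on about 242 and 225 fragments. Such a transcript listed at 0 could hold up to 0.124 and 0.133 FPKM, counting error only. The column sums were 153340 and 161117 FPKM, and 8754 and 8270 genes reached 1 FPKM. Subunits of the ribosome, respiratory chain and proteasome are needed together in all cells. Their differences had a median of 0.81 and an SD over genes of 0.97, so that a shift toward MCPs and scatter between genes are mixed in them. Of 178 such genes at 10 FPKM or more, 6 passed the 4-fold limit upward and 1 downward (3.93% in both directions together), against 3.72% and 5.99% of all genes compared. Psmc1, a proteasome ATPase, read 26.03 FPKM against 0.39, and Rps27, a ribosomal protein gene, 243.9 while listed at 0 in the macrophage-labelled library. Eef1a1, elongation factor 1 alpha, read 294.1 against 6.58. These genes have many processed copies in the genome, and their single values are uncertain.

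The labels were checked against marker genes. Kit stood at 95.29 FPKM in MCPs and 9.96 in the macrophage-labelled library, a 9.57-fold ratio, and Csf1r at 0.43 and 34.11. For Adgre1, the gene of the F4/80 antigen of macrophages, the levels were 3.39 and 18.36. Itgb7 read 10.39 and 0.72, and Itga4, its partner chain in the integrin alpha 4 beta 7, 76.53 and 10.72. Kit, Csf1r and Adgre1 thus stood on the side that the labels name, and Itgb7 checks nothing if the sort was on it. In bulk RNA, fewer cells of a type and less RNA per cell cannot be told apart, here and in all that follows.

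Granule genes of eosinophils and neutrophils nevertheless took up far more of the macrophage-labelled library than macrophage genes did. The 73 genes of the eosinophil and neutrophil lists summed to 24911 FPKM there, 15.5% of its total, against 1701 FPKM or 1.11% in MCPs and 12022 FPKM or 7.10% in EMPs. The 48 macrophage markers of the table summed to 3050 FPKM in it. Of this, 2633 came from Lyz2, a lysozyme of macrophages and neutrophils that stands in both the macrophage and the primary granule list, and the other 47 summed to 417.3, against 133.4 in MCPs. C1qb and C1qc, complement chains typical of resident macrophages, stood at 6.82 and 2.89 FPKM, Mertk, a receptor for the uptake of dead cells, at 1.03, and Trem2, a lipid receptor, at 2.62. These macrophage genes were thus low, while Csf1r and Adgre1, given above, and Mpeg1 and Ctss, given below, stood higher. Of 29 macrophage markers with 1 FPKM or more in either liver library, 28 reached it in the macrophage-labelled library and 15 in MCPs. Granulocyte genes still summed to far more than macrophage genes there, and the library is called macrophage-labelled for that reason. Of 24 hepatocyte markers 4 reached 1 FPKM in either library, and Alb and Afp, the genes of albumin and alpha-fetoprotein, stood at 1.56 and 1.38 in MCPs and 0.51 and 0.46 in the macrophage-labelled library. Endothelial markers reached 1 FPKM for 1 of 14 genes and stromal markers for 4 of 14.

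The MCP side opened with the mast cell receptors. Gene lists were read at a lower limit of 1 FPKM in either liver library. A 2-fold difference (1 on the log2(FPKM + 1) scale) was counted. A member could pass this limit through 1 library alone, so the measured members lean toward the library where they are high. Of the 9529 genes at that limit, 16.4% were higher in MCPs by this measure, 11.7% were higher in the macrophage-labelled library, and the median difference was 0.18 (-0.04 after scaling). These shares were not counted after scaling. Counts of list members after scaling, given below, thus have no share over all genes beside them, and only the scaled medians can be set against all genes. Of 24 measured genes for mast cell receptors and their signalling, 8 were higher in MCPs, 4 were higher in the macrophage-labelled library and 12 lay within 2-fold, with a median of 0.13 that turned to -0.11 after scaling. The split ran between the beta and gamma chains of the IgE receptor, and its alpha chain is not given here. Ms4a2, which encodes the beta subunit of the IgE receptor, read 23.80 FPKM against 0.62, whereas Fcer1g, the gamma chain that many other Fc receptors share, read 74.09 against 137.9. Il1rl1, the receptor for interleukin 33, stood at 7.60 and was listed at 0 in the macrophage-labelled library. Lat, an adaptor of the IgE receptor, read 8.02 against 0.21, and Lyn, the kinase that starts its signal and serves most myeloid receptors, read 20.24 against 45.04. These are single members of a list of which 12 genes lay within 2-fold. Ms4a2 lies on chromosome 19 at 11615523 to 11623719 (GRCm38, minus strand) and Kit on chromosome 5 at 75574916 to 75656722.

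Granule and mediator genes of mast cells had 7 of 16 measured members higher in MCPs, 1 lower, and a median of 0.85. Cpa3, mast cell carboxypeptidase, read 172.3 FPKM against 10.26 (16.8-fold). Gzmb, granzyme B, a serine protease of cytotoxic and mast cells, read 21.48 against 0.31, and Slc6a4, the serotonin transporter, 8.14 against 0.51. By contrast Hdc, which makes histamine, read 63.70 against 43.57, and Srgn, the serglycin core that holds granule contents, 227.0 against 317.9, so these were within 2-fold. Serpinb1a, an inhibitor of neutrophil proteases, was higher in the macrophage-labelled library, at 42.73 against 8.31. A further 11 of the 27 genes in the table stayed under 1 FPKM in both.

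Erythroid genes had the highest median of the 41 lists with 5 or more measured members. Of 25 such genes 21 stood at least 2-fold above the other library in MCPs and none stood 2-fold below it, with a median of 1.89 (1.63 after scaling and 0.91 with a pseudocount of 5). Car1 and Car2, carbonic anhydrases of red cells, read 41.11 and 32.86 FPKM against 0.08 and 0.79. Klf1, the master transcription factor of red cells, read 21.31 against 0.40. Ermap, a membrane protein of red cells, read 24.32 against 0.19. Beta globin gene Hbb-b1 read 119.9 against 8.49 and alpha globin gene Hba-a1 61.12 against 15.79, and the globin copies share reads. In limb MCPs of the same day the list divided: Car1 stood at 28.67 and Klf1 at 8.27, while Ermap read 0.20 and Hbb-b1 0.19. Hbb-b1 and Ermap thus had high values in the liver MCP library but not in limb MCPs, whereas Car1 had them in both. Of the 25 members 25 reached 1 FPKM in liver MCPs, 9 in the macrophage-labelled library and 11 in limb MCPs. The 25 were kept because they passed that limit in either liver library, so the first count is largely set by that choice. Limb MCPs played no part in the choice, and 25 against 11 is not a like comparison. A further 11 of the 36 erythroid genes with values stayed under 1 FPKM in both liver libraries. Whether red cell precursors were part of the liver sort was not tested.

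Megakaryocyte and platelet genes had 10 of 21 higher in MCPs (6 after scaling), 2 lower and a median of 0.99. F2r, a thrombin receptor, read 49.65 FPKM against 0.45, and Pdlim1, an actin-linked adaptor, 44.56 against 7.42. Pf4, platelet factor 4, a defining platelet transcript, read 1.61 against 0.31, and Itga2b, the platelet integrin chain, 2.95 against 2.47. The largest difference of the list was thus that of F2r, while Pf4 and Itga2b were low in both libraries. Thrombospondin 1, gene Thbs1, went the other way with 2.41 against 21.24. F2r was also high in limb MCPs at 44.33.

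Progenitor genes had 11 of 22 members higher in MCPs, 4 lower and a median of 1.05 (0.84 after scaling). Adgrg1, an adhesion receptor of progenitors, read 41.05 FPKM against 2.70, Angpt1, a ligand of the Tie2 receptor, 15.08 against 0.73, and Hmga2, a chromatin protein of fetal cells, 27.97 against 4.14. EMPs held 37.63, 5.86 and 40.04 of these. Prom1 and Dach1 were on the other side, with 0.36 and 0.20 in MCPs against 9.33 and 10.71. Cd34, a surface mark of early progenitors, read 22.25 against 42.24 and 73.77 in EMPs, so it was lower in both libraries than in EMPs. Progenitor genes thus did not lie wholly on the mast cell side.

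Transcription factors separated in part along the same lines. Among 26 factors of the erythroid, mast and megakaryocyte lineages 10 were higher in MCPs, 3 lower and 13 within 2-fold (median 0.80). Among 37 myeloid factors 2 were higher in MCPs, 14 lower and 21 within 2-fold (median -0.66). The factors named below are mostly those with large differences. Gata2, needed for mast cells and stem cells, read 16.91 FPKM against 1.09, and Tal1, its partner in blood progenitors, 20.17 against 0.98. Spi1, which encodes PU.1, read 15.36 against 99.06, Cebpe, a factor of late granulocyte genes, 2.83 against 46.97, and Irf8, a factor of monocytes and dendritic cells, 3.15 against 23.47. Tfec, a relative of the mast cell factor Mitf, was counted with the first list and went against it, with 3.21 against 44.89. EMPs held 108.2 of Spi1, 45.09 of Cebpe and 50.72 of Tfec, close to the macrophage-labelled library in each case. Broad factors stood high in both, such as Ikzf1 at 118.4 and 75.66 and Myb at 118.4 and 60.61.

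**Figure D2:**
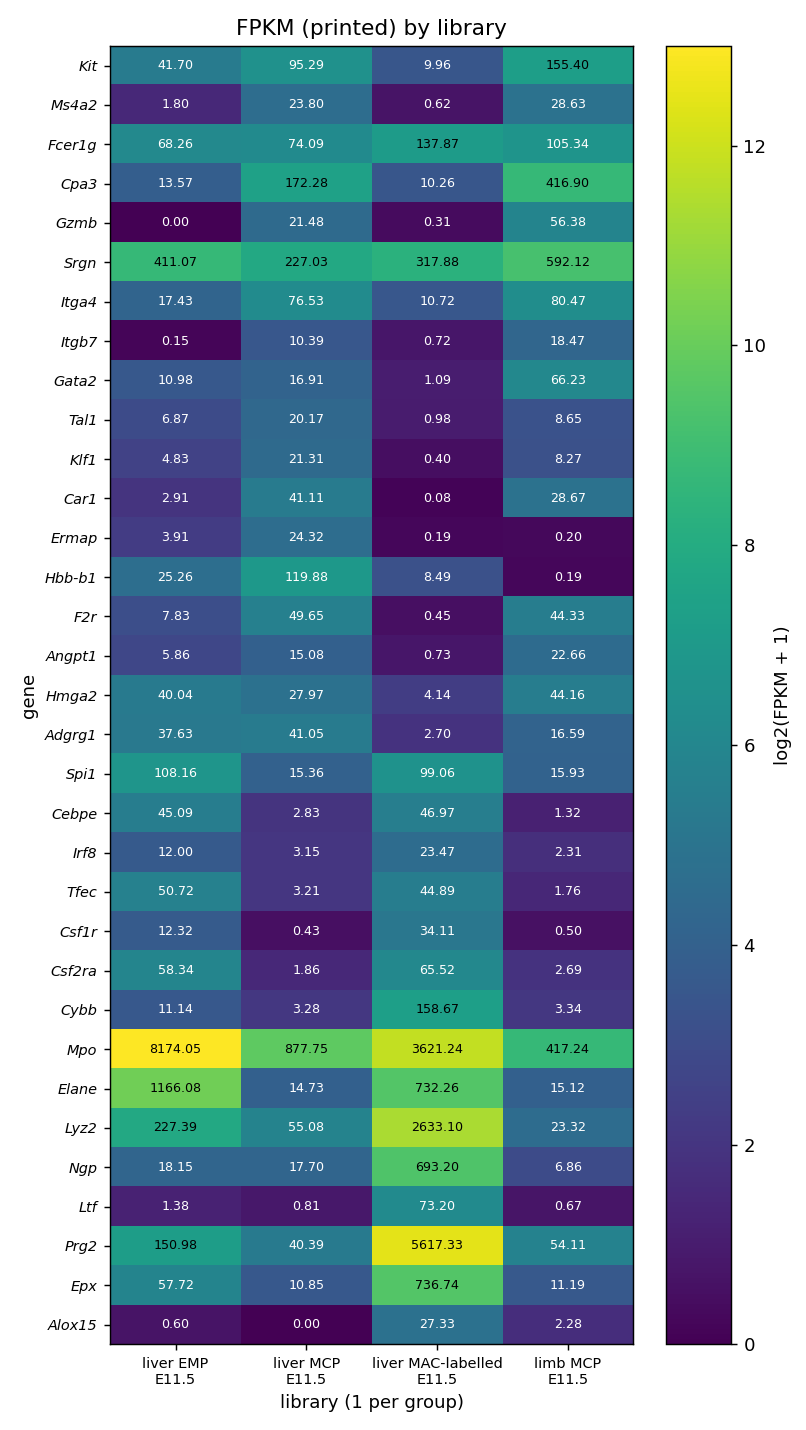
Levels of 33 genes (rows) in 4 libraries (columns), printed as FPKM and coloured by log2(FPKM + 1). Spi1, Cebpe and Tfec in the macrophage-labelled library are near their EMP levels, while Prg2 stands at 5617 there and Cpa3 at 172 in liver MCPs.

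Promoters of 6 genes are shown, each the called gene with the largest difference in its list among those with a promoter entry and not already taken by another list, because GATA, KLF, C/EBP and ETS factors differ between the libraries themselves. The sequences are RefSeq promoters on GRCm38.p6, read 5′ to 3′ on the gene's strand and ending at or before the base next to the annotated start, without bases that GENCODE M21 places in an exon of the gene. Capitals mark a match to a searched motif on either strand. Ms4a2 lies at chr19:11623720-11623869 (minus), Gzmb at chr14:56262335-56262484 (minus), Ermap at chr4:119190012-119190145 (minus), Lyz2 at chr10:117282322-117282422 (minus), Elane at chr10:79886162-79886246 (plus) and Ear1 at chr14:43819640-43819789 (minus).
Ms4a2: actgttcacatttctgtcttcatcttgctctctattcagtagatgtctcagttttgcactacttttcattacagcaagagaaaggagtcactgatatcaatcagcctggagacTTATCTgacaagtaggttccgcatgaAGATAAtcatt
Gzmb: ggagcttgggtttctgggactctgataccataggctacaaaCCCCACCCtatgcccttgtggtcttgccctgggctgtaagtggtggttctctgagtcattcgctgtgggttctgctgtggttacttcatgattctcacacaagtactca
Ermap: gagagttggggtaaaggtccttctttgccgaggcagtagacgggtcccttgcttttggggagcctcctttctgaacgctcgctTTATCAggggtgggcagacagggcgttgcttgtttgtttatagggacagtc
Lyz2: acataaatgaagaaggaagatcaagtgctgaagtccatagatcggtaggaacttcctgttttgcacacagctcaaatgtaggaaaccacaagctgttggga
Elane: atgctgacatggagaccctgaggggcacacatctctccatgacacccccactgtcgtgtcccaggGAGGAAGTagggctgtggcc
Ear1: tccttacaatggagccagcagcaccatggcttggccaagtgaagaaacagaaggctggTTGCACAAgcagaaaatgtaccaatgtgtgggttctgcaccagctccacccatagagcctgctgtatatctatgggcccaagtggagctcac

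The Ms4a2 sequence held 2 GATA matches, which began 37 and 11 bases before the start, and Ermap held 1 at 67 bases. Gzmb had a CACCC box, the KLF motif, at 109 bases, Elane an ETS match of the PU.1 kind at 85 bases and Ear1 a C/EBP match at 92 bases. Lyz2 had none of the searched letters in this window. These are matches of letters and not measured binding sites.

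The motifs were counted in the whole windows of 300 bases, from 250 before to 50 after the start. GATA stands for AGATAA or TGATAA, KLF for CCACACCC or CCCCACCC, ETS for GAGGAAGT or GAGGAACT, and C/EBP for TTGCNNAA or TTNNGCAA. The GATA-TAL1 composite joins an E-box to a GATA match at a fixed distance and so overlaps GATA matches. All were searched on both strands. Promoters were found for 2531 of the 3254 genes compared, 89 of the 121 and 146 of the 195, and a gene can have several. The ETS motif stood in 28 of 172 promoters of genes higher in the macrophage-labelled library (16.3%), in 4 of 118 of genes higher in MCPs (3.39%), in 5.76% for the genes compared and in 4.76% of all 32851 promoters. The C/EBP motif was in 15.1%, 5.93%, 8.73% and 10.8% in that order. GATA did not follow the MCP side, with 16.9% and 14.4% of the called groups, 10.5% of genes compared and 18.6% of all. KLF was in 20.9%, 18.6%, 16.4% and 13.05%, and the composite in 1.16%, 1.69%, 0.626% and 0.618%. These shares are a description of the windows, and no test was made.

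Eosinophil genes had the lowest median of the 41 lists. All 15 measured members were at least 2-fold higher in the macrophage-labelled library, with a median of -5.37 (-5.50 after scaling). All 15 reached 1 FPKM in the macrophage-labelled library and 7 in MCPs, so the others were measured only through the library where they are high. Prg2, major basic protein, read 40.39 FPKM in MCPs, 151.0 in EMPs and 5617 in the macrophage-labelled library, 139-fold above MCPs. Epx, eosinophil peroxidase, read 10.85 against 736.7 and Prg3, a homologue of major basic protein, 1.51 against 103.2. Ear1, Ear2 and Ear6, eosinophil ribonucleases, read 8.64, 9.01 and 13.38 in MCPs against 1111, 780.1 and 1632, and their single values are uncertain because these copies share reads. Siglecf, the eosinophil lectin, read 6.03 against 39.47, and Il5ra, the interleukin 5 receptor of eosinophils, 0.94 against 5.04. These surface genes had ratios of 6.55 and 5.36. Prg2 lies on chromosome 2 at 84980461 to 84983632.

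The neutrophil programme was present in 2 stages that related differently to EMPs. Primary granule genes had 10 of 14 measured members higher in the macrophage-labelled library, none 2-fold higher in MCPs, and a median of -2.46. Mpo, myeloperoxidase, read 877.8 FPKM in MCPs, 8174 in EMPs and 3621 in the macrophage-labelled library. Elane, neutrophil elastase, read 14.73, 1166 and 732.3 in the same order and Prtn3, another serine protease, 14.81, 383.0 and 183.9. Both other liver libraries were thus below EMPs in these enzymes, and MCPs were far below. Summed over the list, MCPs held 1188 FPKM, EMPs 10512 and the macrophage-labelled library 7577, Lyz2 included.

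Secondary granule and late neutrophil genes had 37 of 40 measured members higher in the macrophage-labelled library, none higher in MCPs, and a median of -3.35. All 40 reached 1 FPKM in the macrophage-labelled library and 22 in MCPs. Ltf, lactoferrin, read 0.81 FPKM in MCPs, 1.38 in EMPs and 73.20 in the macrophage-labelled library, and Ngp, neutrophilic granule protein, 17.70, 18.15 and 693.2. S100a8 and S100a9, which form calprotectin, read 35.39 and 70.80 against 964.9 and 1384. Fcnb, a ficolin, read 2.37 against 174.6 and Mcemp1, a membrane protein of myeloid cells, 0.30 against 88.24. Summed over the list, MCPs held 421.7 FPKM, EMPs 1240 and the macrophage-labelled library 6919, so its level there was above both. Stfa1, a stefin, read 28.89 against 748.0, and the stefin copies share reads.

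Macrophage and monocyte genes had smaller differences. Of 29 measured macrophage markers 17 were higher in the macrophage-labelled library, 2 were higher in MCPs (19 and 1 after scaling), and the median was -1.85. The median depended on the treatment of low values, with -0.61 without an expression minimum and -0.64 with a pseudocount of 5. Lyz2 read 55.08 FPKM against 2633, Mpeg1, the pore-forming protein of phagocytes, 1.91 against 40.68, and Ctss, cathepsin S, 2.94 against 30.77. Apoe, apolipoprotein E, which macrophages secrete, went against the list with 70.44 against 15.77 (1.82 after scaling, just under 4-fold). Cx3cr1, the fractalkine receptor, did so too at 10.52 against 4.48. Of 26 monocyte markers 19 were higher in the macrophage-labelled library and 2 in MCPs (median -1.82). Ly6c2, the mark of inflammatory monocytes, read 0.70 against 64.99, F13a1, a clotting factor chain, 4.07 against 97.00, and Fn1, fibronectin, 0.41 against 13.61. Ly6e, a small surface protein of the Ly6 family, was high in both at 202.3 and 220.4.

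**Figure D3:**
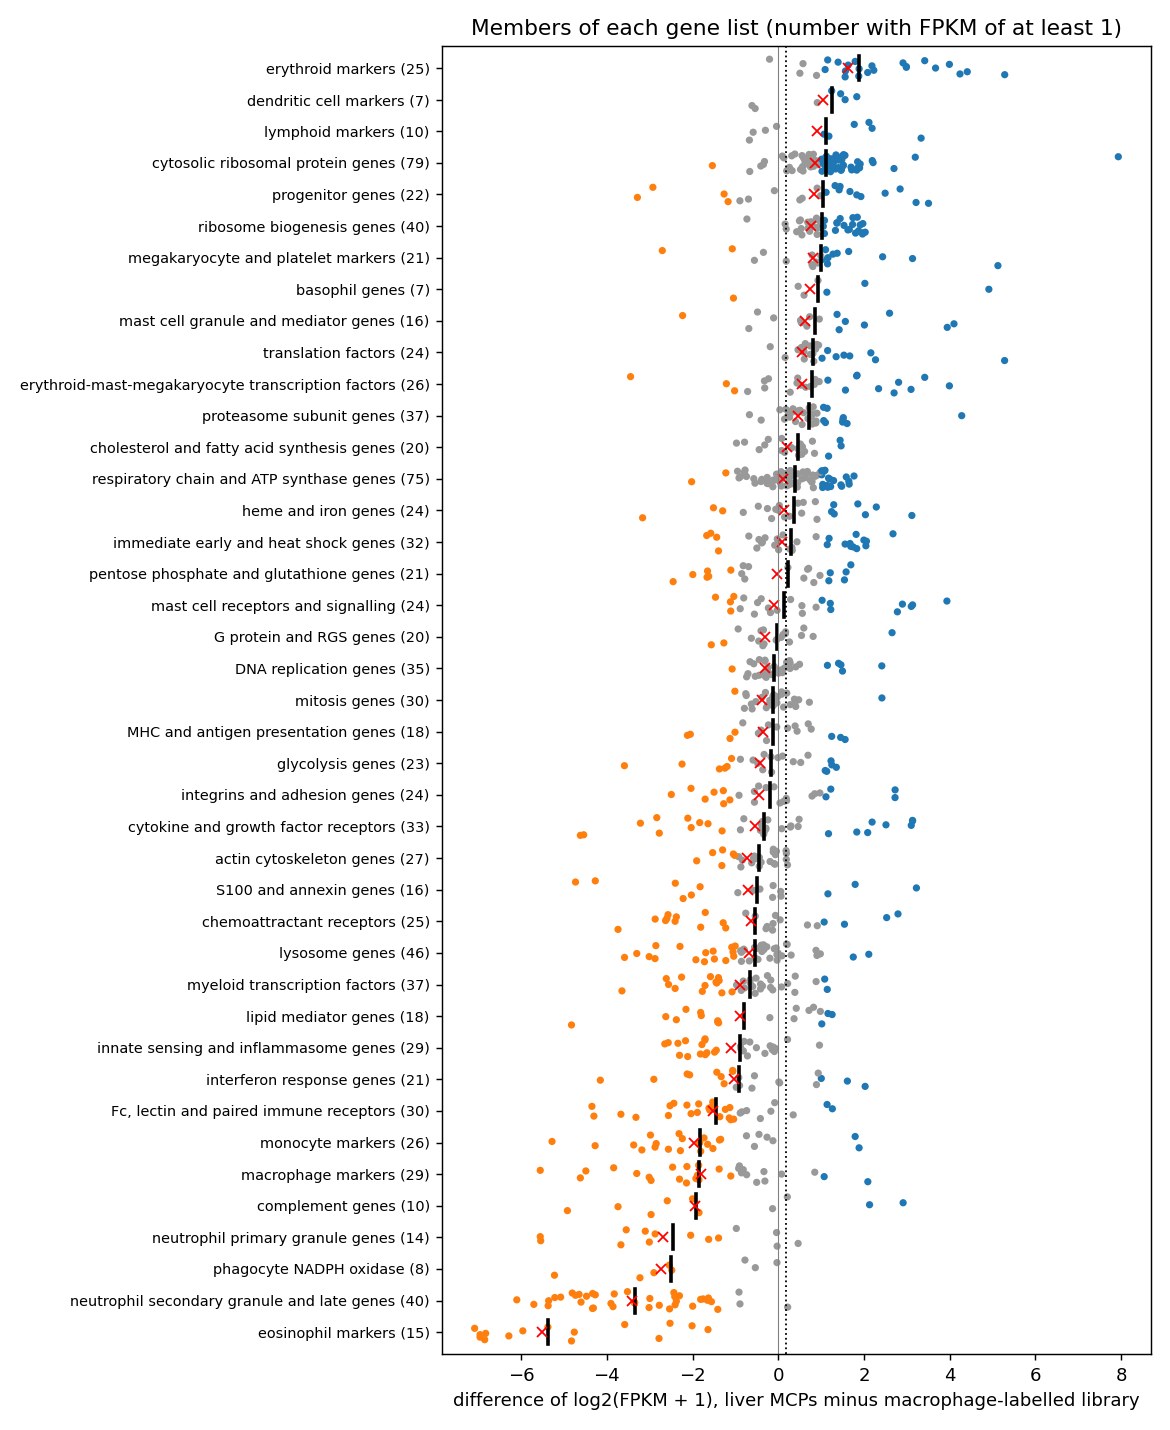
Difference of log2(FPKM + 1), liver MCPs minus the macrophage-labelled library, for each measured member of 41 gene lists with at least 5 such members. Blue and orange mark 2-fold or more in either direction, bars the list medians, crosses the medians after median-of-ratios scaling and the dotted line the median of all genes (0.18), and eosinophil markers (-5.37) and erythroid markers (1.89) form the ends.

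Phagocyte functions showed the same side. Of 8 genes of the phagocyte NADPH oxidase, which makes superoxide, 5 were higher in the macrophage-labelled library and 3 within 2-fold (median -2.51). Cybb and Cyba, the membrane chains, read 3.28 and 4.47 FPKM against 158.7 and 50.20, and Ncf1 and Ncf4, cytosolic chains, 11.03 and 3.88 against 66.33 and 27.45. Hvcn1, the proton channel that sustains the oxidase, read 0.99 against 13.87. The small GTPases Rac1 and Rac2, which serve many other processes, differed little, at 131.5 and 67.65 against 134.3 and 116.6. Of 10 complement genes 6 were higher in the macrophage-labelled library (median -1.92, and -0.19 without an expression minimum), led by C3 at 2.59 against 107.6. Cd59a and Cd55, which shield cells from complement, were higher in MCPs at 7.67 and 14.77 against 0.15 and 2.60.

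Fc receptors, lectins and paired receptors had 21 of 30 measured members higher in the macrophage-labelled library and 2 in MCPs (median -1.45). Siglece, an inhibitory lectin of myeloid cells, read 0.40 FPKM against 27.50, Clec12a, another inhibitory lectin, 2.60 against 69.99, and Cd33 2.31 against 32.07. Tyrobp, the DAP12 adaptor, was abundant in both at 111.0 and 322.2, and Fcgr3, a low-affinity IgG receptor that mast cells also carry, differed little at 36.94 and 41.72. Lysosome genes had 16 of 46 higher in the macrophage-labelled library, 2 in MCPs and a median of -0.55. Psap, the prosaposin of lipid breakdown, read 21.36 against 160.8, Grn, progranulin, 6.28 against 70.76, and Ctsh, cathepsin H, 1.12 against 24.47. Ctsd, cathepsin D, read 68.71 against 78.78, and Ctsl, cathepsin L, 22.19 against 5.89, so the cathepsins did not move together.

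Cytokine receptors divided between the libraries. Of 33 measured members 8 were higher in MCPs and 10 in the macrophage-labelled library (median -0.33). Csf2ra, the specific chain of the GM-CSF receptor, read 1.86 FPKM against 65.52, while Csf2rb, the chain shared with the receptors for interleukins 3 and 5, read 53.38 against 67.76. Il2rg, the common gamma chain, read 72.81 against 11.92 and Il7r, its partner in the interleukin 7 receptor, 3.93 against 0.08. EMPs held 58.34 of Csf2ra, like the macrophage-labelled library.

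Receptors for chemoattractants had 11 of 25 members higher in the macrophage-labelled library, 4 in MCPs and a median of -0.54. Cxcr4, the receptor that holds cells in marrow and liver, read 14.27 FPKM against 93.46, C5ar1, the receptor of complement fragment C5a, 0.63 against 20.76, and Cxcr2, a chemokine receptor of neutrophils, 7.17 against 42.32. Ccr2, the chemokine receptor of monocytes, read 8.59 against 32.61. S1pr1, the sphingosine receptor by which cells leave tissues, read 6.91 against 0.14. Among 24 integrins and adhesion genes 4 were higher in MCPs and 7 in the other library (2 and 8 after scaling, median -0.19). Itgam, the CD11b chain, read 21.30 against 124.7, and Itgb2, its partner, 35.54 against 102.2. The alpha 4 and beta 7 chains were on the MCP side and the CD11b and beta 2 chains on the other, which shows in the plot of related genes.

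**Figure D4:**
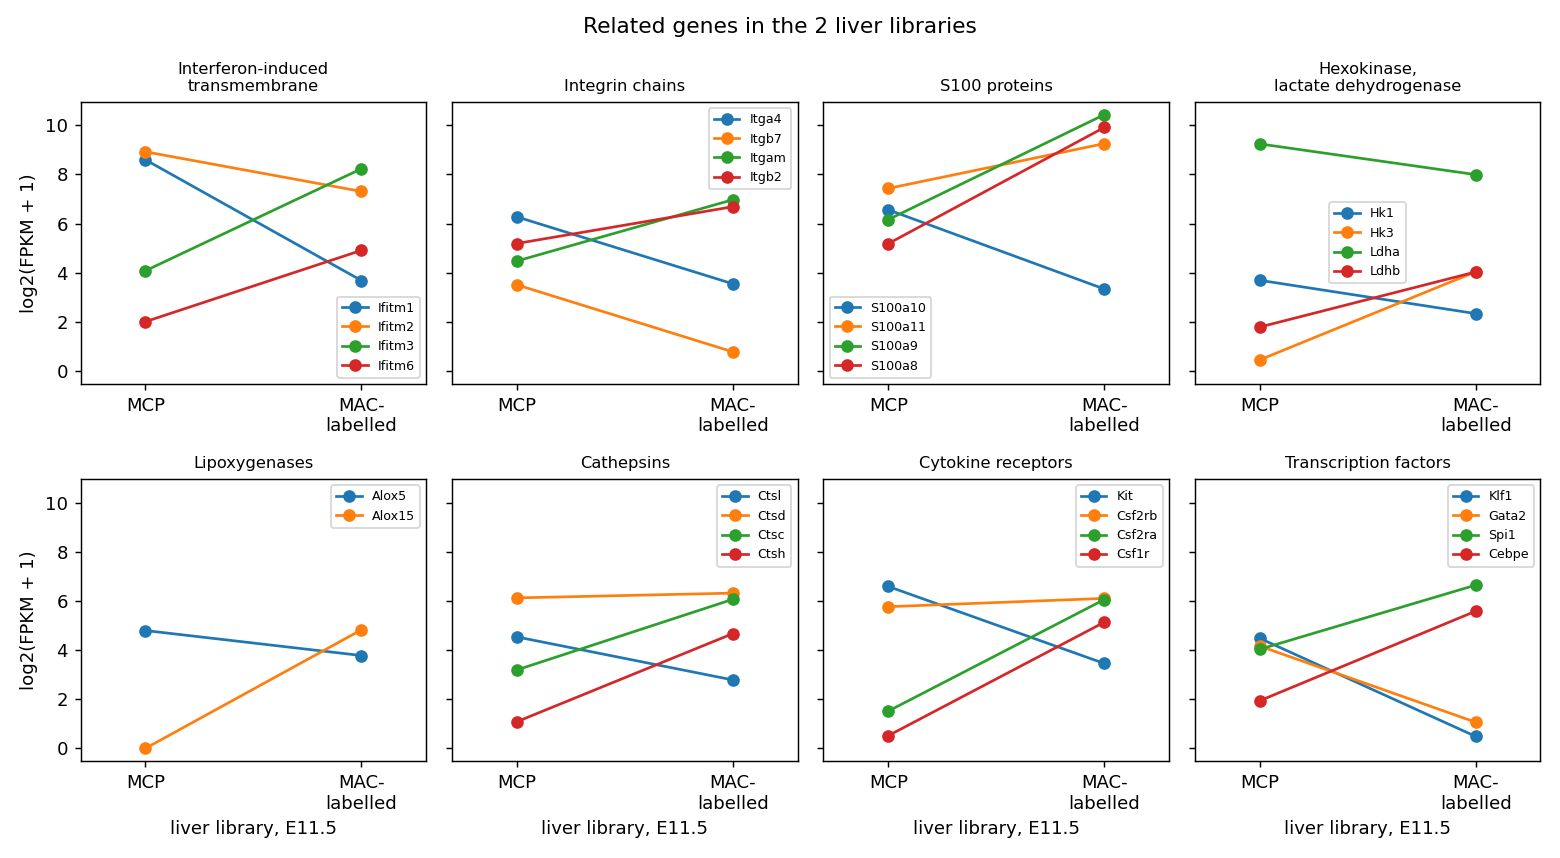
Levels of related genes in the 2 liver libraries as log2(FPKM + 1), 1 point per library, with each gene joined by a line. Lines cross within the Ifitm, integrin, S100, hexokinase and lactate dehydrogenase, lipoxygenase, cathepsin, cytokine receptor and transcription factor groups, as where Ifitm1 (386.7 to 11.85) and Ifitm3 (15.95 to 300.2) exchange places.

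Neighbouring genes of the Ifitm family, interferon-induced membrane proteins that restrict viruses, differed in opposite directions. Ifitm1 read 386.7 FPKM in MCPs and 11.85 in the macrophage-labelled library (32.6-fold), and Ifitm2 485.0 and 157.8. Ifitm3 read 15.95 and 300.2 (18.8-fold the other way) and Ifitm6 3.03 and 29.14. On GRCm38 they lie together on chromosome 7, Ifitm2 at 140954837 to 140955987, Ifitm1 at 140967221 to 140969825, Ifitm3 at 141009586 to 141010770 and Ifitm6 at 141015699 to 141017924. The pair nearer the start of this stretch was thus higher in MCPs and the other pair higher in the macrophage-labelled library, under both scalings. Limb MCPs held 1393 of Ifitm1 and 26.95 of Ifitm3. The wider interferon list had 9 of 21 members higher in the macrophage-labelled library and 3 in MCPs (median -0.92).

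S100 and annexin genes had the same kind of split, with 3 of 16 higher in MCPs and 6 in the macrophage-labelled library. S100a10, the partner of annexin A2, read 93.58 FPKM against 9.12, with 4.91 in EMPs and 77.63 in limb MCPs, while its kin S100a8 and S100a9 were on the other side, as given above. S100a11 read 171.9 against 610.7. Anxa1, annexin A1, read 43.78 against 207.5, and Anxa2 15.26 against 14.54.

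Enzymes of sugar and lipid metabolism differed by isoform. Hk1, the widespread hexokinase, read 11.95 FPKM against 4.06, and Hk3, the myeloid form, 0.37 against 15.49. Ldha, lactate dehydrogenase A, read 605.9 against 254.1, and Ldhb 2.46 against 15.40. Gapdh read 444.7 against 1153, and glycolysis as a list had 5 of 23 members higher in MCPs and 6 in the other library (2 and 7 after scaling, median -0.17). G6pdx and Pgd, which make NADPH in the pentose phosphate pathway, read 36.37 and 27.29 against 203.6 and 111.7, and Gsr, glutathione reductase, 18.68 against 61.22. The pentose phosphate and glutathione list had 5 of 21 higher in MCPs and 6 in the other library (3 and 9 after scaling), with a median of 0.23 that turned to -0.03 after scaling.

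Lipid mediator genes had 9 of 18 members higher in the macrophage-labelled library and 3 in MCPs (9 and 1 after scaling, median -0.79). Alox15, a lipoxygenase of eosinophils and macrophages, stood at 27.33 FPKM and was listed at 0 in MCPs, whereas Alox5, which starts leukotriene synthesis, read 26.75 in MCPs against 12.72. Alox5ap, the partner protein of Alox5, read 40.73 against 108.5. Cholesterol and fatty acid genes had 3 of 20 higher in MCPs and none in the other library (2 and 1 after scaling, median 0.47), and Sqle, squalene epoxidase, read 10.21 against 3.12.

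Heme and iron genes had 7 of 24 higher in MCPs, 3 lower and a median of 0.36. Blvrb, biliverdin reductase B, read 44.76 FPKM against 4.27, Slc11a2, an iron transporter, 12.58 against 1.78, and Cpox, an enzyme of heme synthesis, 23.17 against 4.90. Alas1, the general first enzyme of heme synthesis, was on the other side at 7.91 against 78.94, with 115.8 in EMPs, and Alas2, its erythroid form, was near 1 in both (1.14 and 0.93). The erythroid first enzyme thus stood low while the globins did not.

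Genes for making proteins had medians above that of all genes, toward MCPs, under both scalings. Of 79 measured cytosolic ribosomal protein genes 48 were higher by 2-fold or more in MCPs and 1 was lower (31 and 1 after scaling), with medians of 1.13 and 0.86, and of 40 ribosome biogenesis genes 20 were higher and none lower (17 and 0 after scaling), with medians of 1.01 and 0.77. Npm1, nucleophosmin, read 2096 FPKM against 532.5, Ncl, nucleolin, 102.4 against 31.73, and Dkc1, which modifies ribosomal RNA, 54.64 against 13.24. Translation factors had 8 of 24 higher and none lower (6 and 0 after scaling), with medians of 0.82 and 0.55. Proteasome subunits had 9 of 37 higher and none lower (5 and 0 after scaling), with medians of 0.72 and 0.46, and most members of both lists lay within 2-fold. Respiratory chain genes were nearer to even, with 18 of 75 higher and 2 lower, but 7 and 7 after scaling, and medians of 0.39 and 0.11. EMPs held 1010 of Npm1 and 69.76 of Ncl, between the 2 libraries compared.

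Differences moved with base composition as well. Genes were put into 5 equal groups by the GC content of their transcripts, and the median difference was 0.33 in the group with the lowest content and -0.10 in that with the highest. When the median of each group was subtracted, a choice made after seeing the data, ribosomal protein genes kept a median of 0.97 and ribosome biogenesis genes of 0.91. The part of GC content in the remaining differences was not tested.

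**Figure D5:**
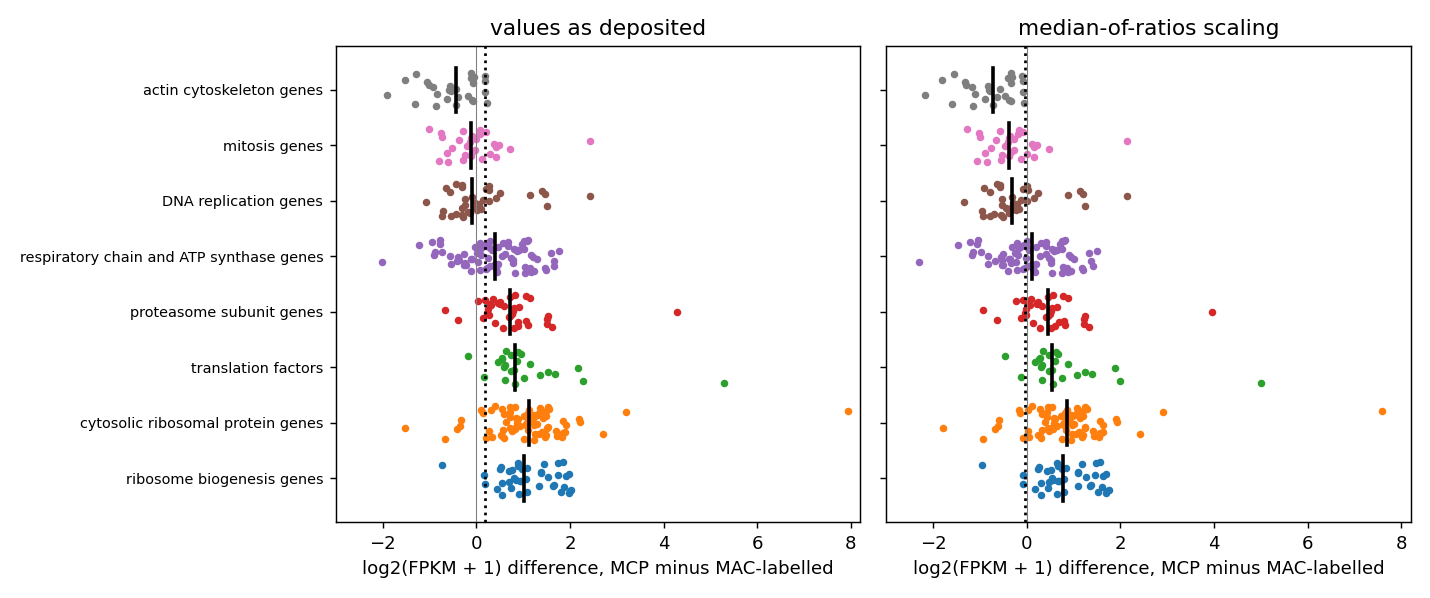
Difference of log2(FPKM + 1), liver MCPs minus the macrophage-labelled library, of the measured genes of 8 lists, with values as deposited (left) and after median-of-ratios scaling (right). Bars are list medians and dotted lines the medians of all genes (0.18 and -0.04), and the ribosome lists stay above those lines in both panels (ribosomal protein genes at 1.13 and 0.86).

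Most cell cycle genes lay within 2-fold. Of 35 DNA replication genes 5 were higher in MCPs and 1 was lower (median -0.10), and of 30 mitosis genes 1 was higher and 1 lower (1 and 4 after scaling, median -0.11). Mki67, a mark of dividing cells, read 93.66 FPKM against 122.3, Pcna, the replication clamp, 195.0 against 231.6, and Top2a, the topoisomerase of dividing cells, 66.94 against 58.18. Both libraries thus carried transcripts of dividing cells. Actin genes were mostly within 2-fold (21 of 27), with 6 higher in the macrophage-labelled library and none in MCPs, and Coro1a, a coat protein of leukocyte actin, read 78.44 against 296.1.

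Immediate early and heat shock genes had 12 of 32 higher in MCPs and 4 lower (median 0.30). Tnfaip3, a brake on NF-kB, read 20.12 FPKM against 2.30, and Hsp90ab1, a chaperone, 1135 against 354.4. Fos and Jun, the chains of AP-1, read 123.1 and 45.01 against 130.4 and 45.72. Zfp36, which destabilises inflammatory mRNAs, read 115.9 against 347.3. Of 20 G protein genes 17 were within 2-fold, and Rgs1, a brake on chemokine receptors, stood out at 84.93 against 12.63.

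The called genes were also placed against liver EMPs of the same day, a separate library and not a measured precursor of the 2 libraries. By the column names, EMPs and MCPs may be the negative and positive sides of the same gate. Whether they came from the same liver preparation is not given in the sources used here. The placement against EMPs is a description that shares its libraries with the comparison. Of the 121 genes higher in MCPs, EMPs were within 2-fold of the macrophage-labelled level alone for 62, of the MCP level alone for 23 and of neither for 36. Of the 195 genes higher in the macrophage-labelled library, EMPs were within 2-fold of that library alone for 93, of MCPs alone for 44 and of neither for 58. Over all 3254 genes these counts were 609 for the macrophage-labelled library alone, 324 for MCPs alone, 164 for neither and 2157 for both. A called gene cannot lie within 2-fold of both libraries, so the choice of called genes itself raises the other counts. The called groups and all genes are therefore not a like comparison. Over all genes, too, the macrophage-labelled level alone was more common than the MCP level alone. Median levels of the 121 genes were 5.95 FPKM in EMPs, 20.17 in MCPs and 2.30 in the macrophage-labelled library. Those of the 195 were 17.20, 3.03 and 34.75.

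Limb MCPs of E11.5 set against liver EMPs give a pair that shares neither library. The EMPs may still share a liver preparation with the MCPs, as said above. Of the 121 genes higher in liver MCPs, 49 (40.5%) were at least 2-fold higher in limb MCPs than in EMPs and 14 (11.6%) lower. Of all genes compared 5.59% were higher and 19.1% lower in that pair. Of the 195 genes higher in the macrophage-labelled library, 74.4% were at least 2-fold lower in limb MCPs than in EMPs and 5 (2.56%) higher. Gzmb read 56.38 FPKM in limb MCPs while listed at 0 in EMPs, and Ms4a2 read 28.63 against 1.80. Elane read 15.12 against 1166 and Csf2ra 2.69 against 58.34 in that pair. The called genes thus carried over to libraries outside the comparison more often than all genes compared did, and no test was made of these shares.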

How the data were processed

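RNA was sequenced from sorted cells, with 1 library in each group. FPKM values with 2 decimals are what the authors deposited, as 1 table. Per the submitters' processing notes, Bowtie2 and RSEM were used with the mouse build mm10 (GRCm38); their versions: not given in the sources used here. Of 17913 rows, 4 with repeated names were dropped, which left 17909 genes. Another 22 had date-like names and are not named in the text, and 17370 names (97.0%) were found in GENCODE M21.

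Differences were taken as log2(FPKM + 1) with Python 3.11.15, numpy 2.4.6 and pandas 2.3.3, on values as deposited and after median-of-ratios scaling over 8774 genes. A pseudocount of 1 understates the change of low genes, and folds are ratios of FPKM without it. Mapped fragments were estimated from the steps between low FPKM values, of which 79.0% (MCPs) and 81.6% (macrophage-labelled) lay within 0.2 of a whole fragment, against 40% by chance. The depth estimate and the calls were also run on simulated data with counting noise only, without variation between embryos or sorts. The outcome is not reported here and cannot speak to such variation.

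Named genes were the 25 with the largest difference in each direction, the sort genes and, from each list, up to 8 members by difference and level, and members within 2-fold could be added. Outside this rule, Ttll12, C1qc, Trem2, Hmga2, Siglecf, Il5ra, Cx3cr1, Ctsl, Alox5 and Batf3 were chosen after their values were seen. Tlr13, Tlr4, Tcf7 and Flt3 fell inside the rule and were also chosen after their values were seen. The members and lists were chosen with earlier results of these data known. Alternatives were TPM, 2 other pseudocounts, other expression minimums, other scalings and a GC correction. Some genes of the lists are not reported here.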

Additional observations from a re-analysis of the deposited data

How the results depend on the processing

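No paired analysis was possible because each group holds 1 library, and no replicate could be left out. Of the 11 alternatives, 6 moved a count of called genes by over 1.5 times or moved the macrophage-labelled share of calls (61.7%). With median-of-ratios scaling, 68 genes were higher in MCPs and the share was 76.6%, and with size factors from the 2 liver libraries alone, added after seeing the data, the share was 74.8%. As TPM, 681 and 522 genes passed in the 2 directions (share 43.4%), and TPM changes the minimum, the weight of the pseudocount and the sums at once. A pseudocount of 5 left 38 and 111 (74.5%), and a minimum of 30 FPKM left 39 and 107 (73.3%). No minimum gave 252 and 312. The median of the lymphoid list, 1.13, turned to -0.0399 when genes listed at 0 were left out. A pseudocount of 5 brought the medians of 11 of 46 lists under the 2-fold limit, among them the macrophage (-0.64), complement (-0.78) and erythroid (0.91) lists, and leaving out the minimum brought 7 under it. No named gene that differed by 2-fold or more changed sign under any alternative that could be computed for it. Smaller differences did, for 4 of 294 genes with scaling and 5 as TPM. Of the 294, a pseudocount of 5 took 63 below the 4-fold limit, TPM took 18 past it, and scaling took 12 below it and 4 past it. With scaling Apoe fell to 1.82, Cpox to 1.76 and Cd55 to 1.86, and Pgd passed with -2.26, Ccr2 with -2.05 and Coro1a with -2.17. Itgb7 lost its call because its scaled level fell under the minimum. Depth limits genes near 1 FPKM, which rest on about 24.2 and 22.5 fragments for a 2 kb transcript.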

Other observations

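Several groups of genes at low levels were not part of the account above. Innate sensing genes had 14 of 29 measured members at least 2-fold higher in the macrophage-labelled library, none in MCPs, and a median of -0.88. All 29 reached 1 FPKM in the macrophage-labelled library and 13 in MCPs. Tlr13, a sensor of bacterial RNA, read 0.06 FPKM in MCPs and 5.64 in the macrophage-labelled library, and Tlr4, the receptor for endotoxin, 0.09 and 5.46. Pycard, the adaptor of inflammasomes, read 9.54 and 4.41, a difference of 0.96 on the log2(FPKM + 1) scale.

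Lymphoid markers had 6 of 10 measured members higher in MCPs and none in the other library. Cd3g, a chain of the T cell receptor complex, read 10.90 FPKM in MCPs, 0.18 in the macrophage-labelled library and 24.81 in limb MCPs, and was listed at 0 in EMPs. Tcf7, a factor of early T and innate lymphoid cells, read 3.34 in MCPs and was listed at 0 in the macrophage-labelled library. Among dendritic cell markers 4 of 7 were higher in MCPs (median 1.25), such as H2-Aa, an MHC class II chain, at 2.43 against 0.25 and Flt3, a receptor of early progenitors, at 2.67 against 0.03. Batf3, a factor of dendritic cells, read 0.48 against 1.15. Whether other cells in the MCP sort carry these transcripts was not tested.

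Basophil genes had 3 of 7 measured members higher in MCPs and 1 lower, and a further 8 of the 15 stayed under 1 FPKM in both. The 3 were Ifitm1, given above with its family, Hgf and Il6, and the lower member was Ccl3. No granule protease was among these, and whether basophils were present was not tested. Hgf, hepatocyte growth factor, read 9.61 FPKM against 3.83, Il6, a cytokine, read 3.06 and was listed at 0 in the macrophage-labelled library, and Ccl3, a chemokine, read 51.23 against 106.8. All 4 Y-linked transcripts were present in both libraries, at 1.51 to 3.01 FPKM in MCPs and 0.19 to 1.32 in the macrophage-labelled library, so both held RNA of male embryos.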
